A study of Mus musculus with 2 samples.

Results

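Macrophages secrete growth factors that act on the cells around them, and 8 genes for such factors were followed through 2 single-cell libraries of small intestinal macrophages. The genes were Bmp2, Igf1, Vegfa, Vegfb, Pdgfb, Pdgfc, Hbegf and Areg, taken as a list of names with no threshold on their values, and they are 8 of the 27998 genes in the count tables. All 8 were found in both libraries. Transcript ends were captured with the 10x Genomics 3′ v2 chemistry, in which every captured molecule carries a unique molecular identifier (UMI), so that UMIs count molecules and need no scaling for gene length.

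One library came from wild-type C57BL/6J male mice bought from Janvier. The other came from CCR2-/- mice of JAX strain 004999 that were bred in-house, and their sex is not given in the labels used here. Ages of the animals are not given for either genotype. Intestines of 3 to 4 animals were pooled per library after mucus and epithelium had been stripped and the tissue digested with Liberase. The sort took live CD45+ CD11b+ MHCII+ CD64+ cells that were negative for CD3, TCRb, B220, SiglecF, Ly6C and Ly6G. Cells with Ly6C on their surface, such as classical monocytes, were thus gated out in both genotypes. Wild-type cells were run on 2 lanes, and the lanes serve as a yardstick within 1 sample, not as replicates. The lanes differed widely in some transcripts, such as the erythroid ones below, so a difference between them need not be technical alone. The genotypes had 1 library each, so they were not tested against each other, and genotype cannot be told apart from the source of the mice, their housing or the day of preparation. Intervals below are at the 95% level and cover counting error only, because pooled animals leave no spread between mice to measure.

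Intestinal macrophages lie beside the epithelium, blood vessels, smooth muscle and enteric neurons. Some of them persist in the tissue without input from the blood, and these often carry Timd4, a receptor for phosphatidylserine on dying cells, or Cd163, a scavenger receptor for haemoglobin bound to haptoglobin. Folr2, a folate receptor, is likewise known from resident macrophages. Others are replaced from blood monocytes, which need Ccr2, a chemokine receptor, to leave the bone marrow. Of the factors, Bmp2 belongs to the TGF-beta superfamily and is known as a signal from muscularis macrophages to enteric neurons. Igf1 acts on cell growth and survival through a receptor tyrosine kinase, Vegfa and Vegfb act mainly on endothelium, Pdgfb and Pdgfc act on pericytes and fibroblasts, and Hbegf and Areg are ligands of the EGF receptor that are released from the cell surface by proteases.

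A cell was used if 200 or more genes were found in it and mitochondrial transcripts made up no more than 10% of its UMIs, which kept 3016 of 3054 wild-type cells and 2612 of 2774 knockout cells. The kept wild-type cells held 20678108 UMIs (14571081 in lane 1 and 6107027 in lane 2) with a median of 6129 per cell, against 7265386 UMIs and a median of 2439 in the knockout. Ccr2, the targeted gene, stood at 331 counts per 1000000 UMIs (CPM) in wild type (347 in lane 1 and 293 in lane 2) and at 6.88 CPM, or 50 UMIs, in the knockout. Where the deleted part lies relative to the counted transcript end is not given in the labels. All 8 macrophage markers had UMIs in each library, and at least 1 of them was found in 99.8% of wild-type and 98.7% of knockout cells. Their summed level was 14277 CPM in wild type and 10716 CPM in the knockout. Single markers went either way, from 0.399-fold for C1qb to 2.75-fold for Mertk (knockout over wild type). Markers of other cells differed as well: the summed level of 5 fibroblast markers was 26.1 CPM in wild type and 232 CPM in the knockout, and that of 5 endothelial markers was 52.0 and 165 CPM. Pecam1 alone made up 50.6 and 137 CPM of the endothelial sums. Erythroid transcripts stood at 761 CPM in wild type, nearly all of it in lane 1 (1078 CPM against 3.44 CPM in lane 2), and at 7429 CPM in the knockout. All 7 mast cell and basophil markers were at 0 in both libraries. Lane 1 shared 5 barcode sequences with lane 2 and 6 with the knockout, and lane 2 shared 0 with the knockout.

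All 8 factors stood higher in the knockout than in wild type when UMIs were summed over the kept cells and scaled to CPM, though Vegfb did not under every scaling, and the amounts were very unequal. Bmp2 differed most among the members with appreciable counts, followed by Igf1 and, close to each other, Pdgfc and Hbegf, whereas Vegfb was nearly level. Of the 8 members, 4 had a mean of at least 10 CPM over the libraries (Bmp2, Igf1, Pdgfb and Pdgfc), and 3 of these were higher in the knockout by 2-fold or more on the log2 scale with 1 CPM added. Bmp2, at 9.77 CPM in wild type, reached that mean through the knockout, so the count of 3 describes the members and supports nothing further. Among all 7401 genes with that mean, 9.04% were higher by 2-fold or more and 3.12% were lower, with a median log2 ratio of 0.18. With no minimum level, 5 of the 8 members were 2-fold or more higher and 0 were lower, against 8.92% higher and 2% lower of the 17077 genes with at least 1 UMI. Between the wild-type lanes, with 1 CPM added, 0.878% of the 7401 genes with a mean of at least 10 CPM differed by 2-fold or more. Of the 8 members, not all of which reached that mean, 0 did. Vegfa (3.23 CPM in lane 1 and 1.47 CPM in lane 2) and Areg (5 and 0 UMIs) fell short of 2-fold only through the added 1 CPM. Scaling matters for counts of this kind. With median-of-ratios size factors in place of library totals, genes higher in the knockout made up 34.7% of all genes past 2-fold instead of 74.3%, the median of all genes moved by -0.30, Pdgfc lay at the 2-fold line with a log2 ratio of 0.996 and Vegfb turned below 0 (-0.17).

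**Figure D1:**
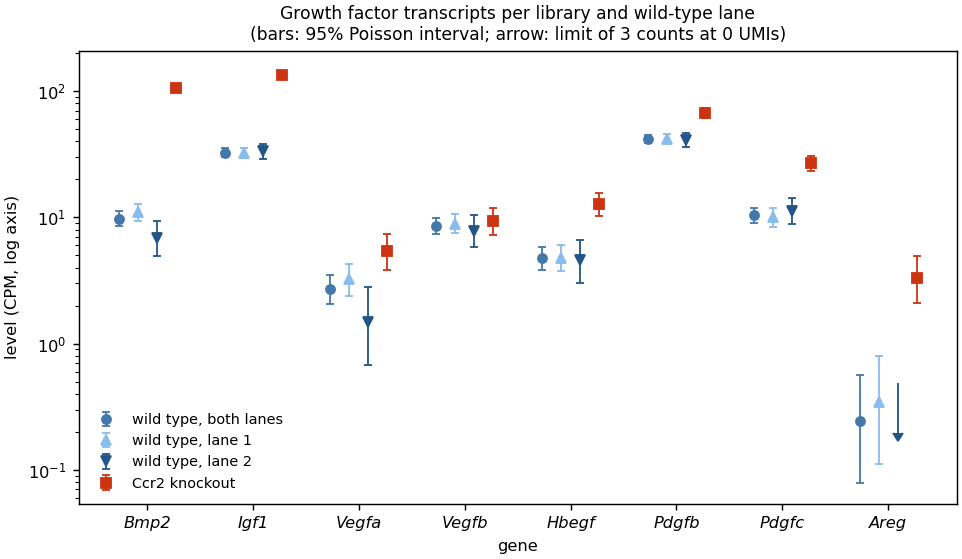
Level of each growth factor gene in CPM on a log axis, for the wild-type library, each of its lanes and the Ccr2 knockout library, with exact Poisson intervals and an arrow at the limit of 3 counts for Areg in lane 2, which had 0 UMIs. The knockout symbol for Bmp2 (106 CPM) and Igf1 (134 CPM) lies far above all wild-type symbols, while the intervals for Vegfb overlap throughout.

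The order of the members by level also differed between the libraries. In wild type Pdgfb was the highest at 41.7 CPM, followed by Igf1 at 32.6 CPM. Pdgfc, Bmp2 and Vegfb came next at 10.4, 9.77 and 8.61 CPM, and neighbours among these 3 had overlapping Poisson intervals. In the knockout Igf1 was the highest, followed by Bmp2, Pdgfb and Pdgfc, and the intervals of these 4 did not overlap. Hbegf and Vegfb followed with overlapping intervals. Vegfa and Areg were the lowest in each library.

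Bmp2 (ENSMUSG00000027358) lies on chromosome 2 from 133552159 to 133562885 on the plus strand (GRCm38, GENCODE M21) and codes for bone morphogenetic protein 2. Wild-type cells held 202 Bmp2 UMIs, or 9.77 CPM (8.47 to 11.2), with 11.0 CPM in lane 1 and 6.88 CPM in lane 2. Knockout cells held 767 UMIs, or 106 CPM (98.2 to 113). The knockout level was therefore 10.8-fold the wild-type level (9.24 to 12.7) and the log2 ratio 3.31. The lanes differed from each other by a log2 ratio of -0.60 (lane 2 over lane 1), and the knockout lay above both. The ratio exceeded that of 99.8% of the 7401 genes. It was 3.15 against lane 1 and 3.76 against lane 2. Bmp2 was also denser in the knockout cells that had it: a mean of 2.30 UMIs per positive cell and up to 17 in 1 cell, against 1.46 and up to 6 in wild type, although knockout cells were shallower.

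Igf1 (ENSMUSG00000020053, chromosome 10, 87858265 to 87937042, plus strand) codes for insulin-like growth factor 1. It was counted 674 times in wild type, at 32.6 CPM (30.2 to 35.2), and the lanes were alike at 32.3 and 33.2 CPM. The knockout had 973 UMIs, or 134 CPM (126 to 143), which is 4.11-fold the wild-type level (3.72 to 4.54) and a log2 ratio of 2.01. That ratio exceeded 98.6% of the 7401 genes. In contrast to Bmp2, the mean number of Igf1 UMIs per positive cell was close in the libraries, at 1.52 in wild type and 1.56 in the knockout.

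The 2 vascular endothelial growth factors were low. Vegfa (ENSMUSG00000023951, chromosome 17, 46016993 to 46032369, minus strand) had 56 UMIs in wild type, or 2.71 CPM (2.05 to 3.52), with 3.23 CPM in lane 1 and 1.47 CPM in lane 2. In the knockout it had 39 UMIs, or 5.37 CPM (3.82 to 7.34), which is 1.98-fold the wild-type level (1.28 to 3.04). The log2 ratio of 0.78 is matched in size by the difference between the wild-type lanes (-0.77), which rests on 9 UMIs in lane 2. The knockout ratio was 0.59 against lane 1 and 1.36 against lane 2. Vegfb (ENSMUSG00000024962, chromosome 19, 6982473 to 6987651, minus strand) had 178 UMIs in wild type, at 8.61 CPM (7.39 to 9.97), and 68 UMIs in the knockout, at 9.36 CPM (7.27 to 11.9). Its fold of 1.09 had an interval from 0.810 to 1.45, so a difference was not detectable at this depth.

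The platelet-derived growth factors differed from each other. Pdgfb (ENSMUSG00000000489, chromosome 15, 79995874 to 80014977, minus strand) had 863 UMIs in wild type, at 41.7 CPM (39.0 to 44.6), and lane levels of 42.0 and 41.1 CPM. The knockout had 484 UMIs, or 66.6 CPM (60.8 to 72.8), 1.60-fold the wild-type level (1.43 to 1.79). Its log2 ratio of 0.66 exceeded that of 80.3% of genes. Pdgfc (ENSMUSG00000028019, chromosome 3, 81036416 to 81214040, plus strand) had 215 UMIs in wild type, at 10.4 CPM (9.05 to 11.9), and lane levels of 10.0 and 11.3 CPM. In the knockout it had 195 UMIs, or 26.8 CPM (23.2 to 30.9), 2.58-fold higher (2.12 to 3.15), with a log2 ratio of 1.29.

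The EGF receptor ligands rested on few cells. Hbegf (ENSMUSG00000024486, chromosome 18, 36504927 to 36515805, minus strand) had 98 UMIs in wild type, at 4.74 CPM (3.85 to 5.78) and 4.80 and 4.58 CPM in the lanes, against 92 UMIs in the knockout, at 12.7 CPM (10.2 to 15.5). The fold was 2.67 (1.99 to 3.59). A single wild-type cell held 15 of the 98 UMIs and a single knockout cell 11 of the 92. The log2 ratio of 1.25 was 1.20 without the 10 cells of each library that held most Hbegf, an alternative chosen after seeing the data. Areg (ENSMUSG00000029378, chromosome 5, 91139599 to 91148432, plus strand) had 5 UMIs in 2 wild-type cells, all in lane 1, and 24 UMIs in 9 knockout cells, of which 1 cell held 8. Lane 2 had 0 Areg UMIs, which allows a level of up to 0.491 CPM (3 counts). The levels were 0.242 CPM in wild type (0.0785 to 0.564) and 3.30 CPM in the knockout (2.12 to 4.92). Cells with 1% or more UMIs from marker genes of other cell types gave 100% of the Areg UMIs in wild type. In the knockout they gave 33.3%. Of the 9 knockout cells, 2 were lymphoid-like and held 9 of the 24 UMIs. Lymphoid-like cells are those with UMIs of at least 2 lymphoid markers and more lymphoid than macrophage marker UMIs. Markers of type 2 innate lymphoid cells, a known source of Areg, stood at a summed 12.2 CPM in wild type, with Il13 at 0, and at 40.7 CPM in the knockout, with Il5 at 0. One of these markers, Rora, alone made up 10.2 and 29.7 CPM of the sums. A UMI of these markers was found in 1 of the 2 wild-type and 2 of the 9 knockout Areg cells. The part of type 2 innate lymphoid cells in the Areg level was not tested.

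**Figure D2:**
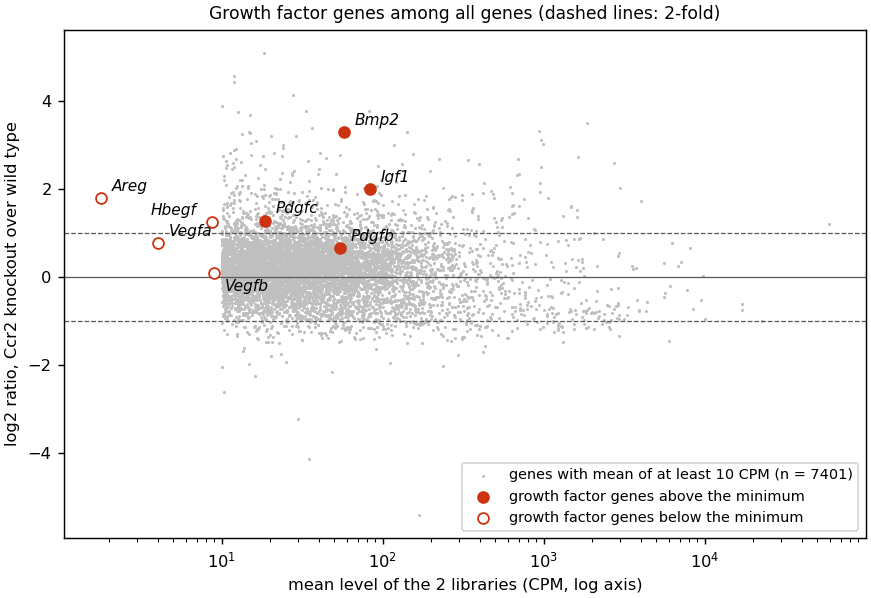
Log2 ratio of knockout to wild type, with 1 CPM added, against the mean level of the libraries on a log axis, for the 7401 genes with a mean of at least 10 CPM (grey) and the 8 growth factor genes (red, open below that mean). Bmp2 (3.31) and Igf1 (2.01) lie at the upper edge of the grey cloud, Pdgfc just above the dashed 2-fold line and Pdgfb below it.

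How many cells carried each factor was compared after thinning every cell to 1000 UMIs, since a deeper cell shows more genes. This kept 3015 wild-type and 2416 knockout cells and left out 1 and 196 shallower cells. The share with Bmp2 was 0.995% in wild type, or 30 of 3015 cells (0.672% to 1.42%, Clopper-Pearson), and 7.37% in the knockout, or 178 of 2416 (6.36% to 8.48%). Igf1 had a share of 4.08% in wild type (3.40% to 4.85%) and of 12.5% in the knockout (11.2% to 13.8%). The shares of these factors thus followed their levels. Pdgfb was found in 4.48% and 6.21% of cells, and Pdgfc in 1.49% and 2.98%. For Hbegf the shares were 0.398% (0.206% to 0.694%) and 1.03% (0.671% to 1.52%), for Vegfb 0.896% and 0.869%, and for Vegfa 0.265% and 0.331%. The intervals of Hbegf, Vegfa, Vegfb and Areg overlapped between the libraries. After thinning 0 wild-type cells had an Areg UMI, where the limit of 3 counts is a share of 0.0995% with a UMI at that depth and says nothing of expression below it, while 3 knockout cells had one (0.124%, 0.0256% to 0.362%).

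Unthinned shares gave another picture for Pdgfb, Vegfb, Pdgfc, Vegfa and Hbegf. Pdgfb was then found in 23.9% of wild-type and 15.7% of knockout cells, Vegfb in 5.40% and 2.49%, and Pdgfc in 6.43% and 6.55%. For Vegfa the unthinned shares were 1.43% and 1.11%, and for Hbegf 2.32% and 2.49%. Bmp2 (4.58% and 12.7%) and Igf1 (14.7% and 23.8%) kept the order of their levels. Lymphoid-like cells, which should lack most of these transcripts, gave the background: after thinning, 6 of the 8 members had 0 positive cells among 31 wild-type and 42 knockout lymphoid-like cells, whose unthinned medians were 8510 and 2280 UMIs. The exceptions were Bmp2 and Areg, with 1 positive knockout cell each (2.38%, 0.0603% to 12.6%). For Areg, which lymphoid cells are known to make, these cells give no background. So few lymphoid-like cells bound a background share only loosely: 0 positive cells allow up to 9.68% in wild type and 7.14% in the knockout (3 counts).

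**Figure D3:**
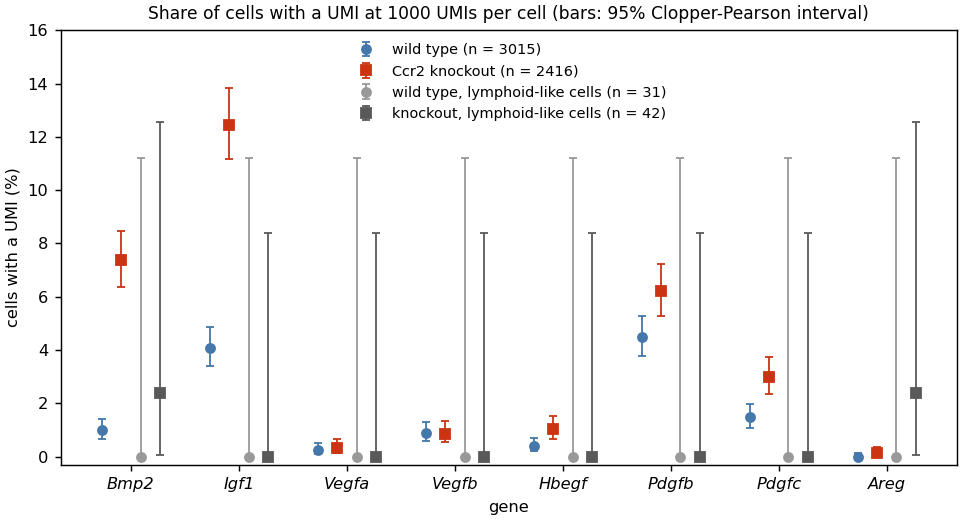
Share of cells with at least 1 UMI of each factor after thinning to 1000 UMIs per cell, with Clopper-Pearson intervals, in wild-type and knockout cells and in the lymphoid-like cells of each library. The knockout shares of Bmp2 (7.37%) and Igf1 (12.5%) lie above the wild-type intervals, and the grey bars show how wide the background interval is.

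Few cells carried more than 1 factor at that depth. At least 1 of the 8 was present in 12.04% of cells of the wild type (10.9% to 13.3%) and in 27.2% of those of the knockout (25.4% to 29.0%). Exactly 2 were found in 17 wild-type and 85 knockout cells, and 3 or more in 0 and 8 cells. In the knockout, 31 of 178 Bmp2-positive cells also had Igf1 (17.4%, 12.2% to 23.8%), against 12.1% of cells without Bmp2. Pdgfc and Igf1 met in 16 of 72 Pdgfc-positive knockout cells (22.2%, 13.3% to 33.6%), against 12.2% of the rest. In wild type 0 of 30 Bmp2-positive cells had Igf1, where the limit of 3 counts is a share of 10%, so the overlap there could not be resolved.

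Which cells held each factor was asked with 4 gate genes, by comparing the summed level in cells with and without a UMI of Timd4, Cd163, Folr2 or Ccr2. A Timd4 UMI was found in 445 wild-type and 815 knockout cells, a Cd163 UMI in 345 and 558, a Folr2 UMI in 81 and 74, and a Ccr2 UMI in 1324 and 30. Gates overlapped: 60.5% of wild-type and 59.5% of knockout Folr2 cells also had Cd163, whereas 17.5% and 22.8% of Timd4 cells did. In wild type a Ccr2 UMI was also found in 33.6% of Cd163 cells, 34.6% of Folr2 cells and 20.4% of Timd4 cells. Since the knockout was shallower, a cell with few gate transcripts there was more often left among the cells without a UMI. A member counted below reached the minimum by its mean over the cells with and without the gate gene, and some did so only through the higher of these, so the counts of members past 2-fold are descriptions.

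Bmp2 and Igf1 were higher in cells with Cd163 in each library. In wild type Bmp2 stood at 30.8 CPM in cells with Cd163 and at 7.002 CPM in cells without, a 4.41-fold difference (3.26 to 5.91) that was 4.20-fold in lane 1 and 4.77-fold in lane 2. In the knockout it stood at 229 and 68.7 CPM, a 3.33-fold difference (2.88 to 3.84). Igf1 showed the same order, at 107 and 22.9 CPM in wild type (4.67-fold, 3.98 to 5.47) and at 259 and 96.4 CPM in the knockout (2.69-fold, 2.36 to 3.05). The Cd163 cells were 11.4% of wild-type cells and held 36.6% of Bmp2 and 38.0% of Igf1 UMIs. In the knockout they were 21.4% of cells and held 49.9% and 44.6%. These 2 members were those past 2-fold of the 5 that reached the minimum level in each library, against 1.75% of genes higher and 0.822% lower in wild type and 1.96% and 2.81% in the knockout. After thinning, Bmp2 was found in 15.2% of knockout cells with Cd163 (11.3% to 19.7%) and in 6.25% of those without (5.25% to 7.37%). Vegfb was 1.87-fold higher in wild-type cells with Cd163 (1.25 to 2.72), and in the knockout its fold was 1.11 (0.602 to 1.96). Pdgfb did not follow Cd163, with folds of 0.876 (0.696 to 1.09) and 0.993 (0.796 to 1.23). Vegfa went the other way: 0 of its 56 wild-type UMIs lay in cells with Cd163, where the limit of 3 counts is 1.25 CPM against 3.06 CPM elsewhere, and in the knockout 3 of 39 did, a ratio of 0.278 (0.0548 to 0.880).

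Folr2 gave similar values on fewer cells. In wild-type cells with Folr2, Bmp2 stood at 43.4 CPM and Igf1 at 119 CPM, and in knockout cells with it at 221 and 255 CPM. Bmp2 was 4.97-fold (3.19 to 7.49) and Igf1 3.98-fold (3.08 to 5.07) higher in wild-type cells with Folr2, and these were the 2 of 4 members past 2-fold, against 2.93% of genes higher and 2.33% lower. In the knockout the folds were 2.19 (1.65 to 2.85) for Bmp2 and 1.97 (1.52 to 2.52) for Igf1. Hbegf reached 2.50-fold there on 8 UMIs (1.04 to 5.15), so that Bmp2 and Hbegf were the 2 of 5 members past 2-fold, against 5.55% of genes higher and 6.76% lower.

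Timd4 separated the members differently and not alike in the libraries. In wild type Igf1 was higher in cells with Timd4, at 64.4 against 26.9 CPM (2.40-fold, 2.02 to 2.83), and Pdgfc was as well, at 19.4 against 8.79 CPM (2.20-fold, 1.61 to 2.98). Lanes 1 and 2 gave 2.17-fold and 3.01-fold for Igf1 and 2.11-fold and 2.44-fold for Pdgfc. They were the 2 of 4 members past 2-fold, against 0.677% of genes higher and 0.663% lower. Vegfb followed at 1.83-fold (1.27 to 2.59). Bmp2 was not higher there, at 6.67 against 10.3 CPM (0.646-fold, 0.390 to 1.02). In the knockout Igf1 was nearly level, at 127 against 138 CPM (0.919-fold, 0.802 to 1.05), and Pdgfc was too (1.06-fold, 0.783 to 1.43). Bmp2 was lower in knockout cells with Timd4, at 85.1 against 117 CPM (0.727-fold, 0.619 to 0.851). None of the 5 members that reached the minimum level was past 2-fold in the knockout, where 0.0133% of genes were higher and 1.47% lower.

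Wild-type cells with a Ccr2 UMI had less Igf1 and less Pdgfc. Igf1 stood at 17.3 CPM in them and at 49.2 CPM in the other cells (0.352-fold, 0.296 to 0.418), and Pdgfc at 4.56 and 16.7 CPM (0.273-fold, 0.194 to 0.377). Those 2, of 3 members that reached the minimum level, were past 2-fold lower, against 1.68% of genes lower and 0.694% higher, and Pdgfc reached it only through the cells without Ccr2. Both held in each lane, with 0.400-fold and 0.244-fold for Igf1 and 0.300-fold and 0.216-fold for Pdgfc. Bmp2 (0.820-fold, 0.615 to 1.09) and Hbegf (1.13-fold, 0.747 to 1.73) differed by less than their counting error, and Pdgfb was slightly lower (0.828-fold, 0.723 to 0.948). Vegfa was higher, at 3.72 against 1.61 CPM (2.31-fold, 1.26 to 4.42), on 40 and 16 UMIs. In the knockout only 30 cells had a Ccr2 UMI, and Pdgfc, on 1 UMI in them (0.316-fold, 0.00795 to 1.78), was the 1 of 4 members past 2-fold, against 18.1% of genes lower and 10.2% higher.

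**Figure D4:**
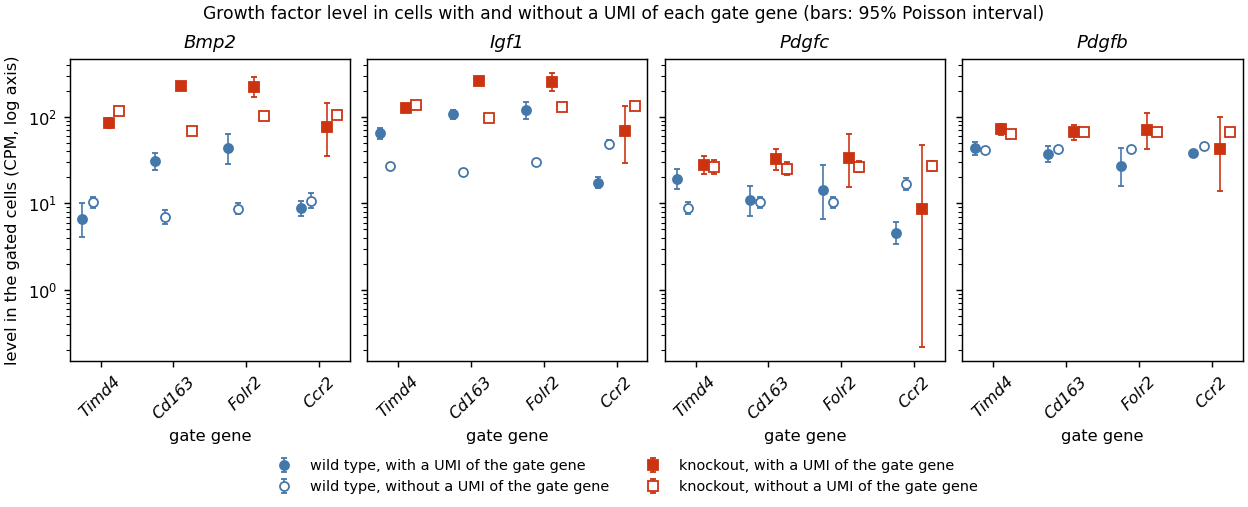
Level of Bmp2, Igf1, Pdgfc and Pdgfb in CPM on a log axis, in cells with (filled) and without (open) a UMI of each gate gene, for wild type (blue) and knockout (red), with exact Poisson intervals. Filled symbols lie above open ones for Bmp2 and Igf1 at Cd163 and Folr2 in each library, at Timd4 they do so for wild-type Igf1 and Pdgfc, and at Ccr2 the wild-type filled symbols of Igf1 and Pdgfc lie lowest.

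The makeup of the cells differed between the libraries, so each factor was also compared within classes of cells. Timd4 stood at 34.2 CPM in wild type and 162 CPM in the knockout, Cd163 at 34.8 and 149 CPM, and Folr2 at 7.50 and 12.2 CPM. Bmp2 was higher in the knockout in every class examined. The fold was 10.5 (8.38 to 13.1) in cells with neither Timd4 nor Cd163, 12.6 (8.97 to 18.1) in cells with no UMI of any gate gene, 7.41 (5.76 to 9.64) in cells with Cd163 and 9.84 (8.03 to 12.2) in cells without Ccr2. Cells without a Ccr2 UMI were 56.1% of wild-type but 98.9% of knockout cells. Ccr2 is the targeted gene, so classes that rest on its absence need not hold the same kinds of cells in each library. The highest class fold, 15.1 in cells with Timd4 and Cd163, rests on 7 wild-type UMIs (7.12 to 38.5), and the lowest, 5.10 in cells with Folr2 (3.18 to 8.36), on 27.

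Igf1 differed less within most classes than over all cells. Its fold was 2.75 (2.46 to 3.07) in cells without Ccr2, 2.43 (2.08 to 2.84) in cells with Cd163 and 1.66 (1.33 to 2.08) in cells with Timd4 but no Cd163. Cells with neither Timd4 nor Cd163, which include most Ccr2 cells of the wild type, gave 5.62 (4.79 to 6.60). Pdgfc was 1.62-fold (1.31 to 2.01) higher in cells without Ccr2, against 2.58-fold over all cells. Leaving out all cells with a Ccr2 or Plac8 UMI, Plac8 being a gene of recruited monocytes, moved the log2 ratio of Igf1 from 2.01 to 1.29 and that of Pdgfc from 1.29 to 0.64, while Bmp2 kept 3.00. That setting kept 1378 of 3016 wild-type cells and 2368 of 2612 knockout cells, so it left the knockout nearly unfiltered. Over the same classes Pdgfb ranged from 1.13-fold in cells with Ccr2, on 5 knockout UMIs (0.364 to 2.66), to 2.61-fold in cells with Folr2, on 17 and 19 UMIs (1.28 to 5.34).

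Immediate-early genes, which include Fos, Jun and Egr1 and are known to be switched on by tissue digestion, took a median of 0.718% of UMIs per cell in wild type and 3.13% in the knockout. All members were compared within 3 bands of equal cell number by that share. The lowest band held 1766 wild-type and 110 knockout cells, the middle band 1144 and 732, and the highest band 106 and 1770. Bmp2 was higher in the knockout in each band, by 8.16-fold (5.06 to 12.7), 4.65-fold (3.47 to 6.27) and 5.65-fold (3.21 to 11.0). Igf1 was higher in each as well, by 2.48-fold (1.69 to 3.53), 3.91-fold (3.19 to 4.79) and 5.20-fold (3.13 to 9.35). Pdgfb was not: its fold was 0.365 (0.118 to 0.858) on 5 knockout UMIs, 1.13 (0.906 to 1.39) and 1.22 (0.846 to 1.81). Pdgfc gave 2.32-fold (1.09 to 4.38), 3.43-fold (2.29 to 5.13) and 1.57-fold (0.802 to 3.51). Hbegf gave 1.32-fold (0.156 to 4.99) on 2 knockout UMIs, 2.0-fold (1.16 to 3.38) and 1.77-fold (0.658 to 6.68), so its counting interval excluded 1 in the middle band alone. Of the 24 knockout Areg UMIs, 4 lay in the lowest band, 18 in the middle and 2 in the highest, the band that held most knockout cells. Vegfa was at 5.40 and 9.44 CPM in the middle band, but at 12.3 CPM in wild type on 6 UMIs and 3.12 CPM in the knockout in the highest. Within wild type Vegfa stood at 0.714 CPM in the lowest band.

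**Figure D5:**
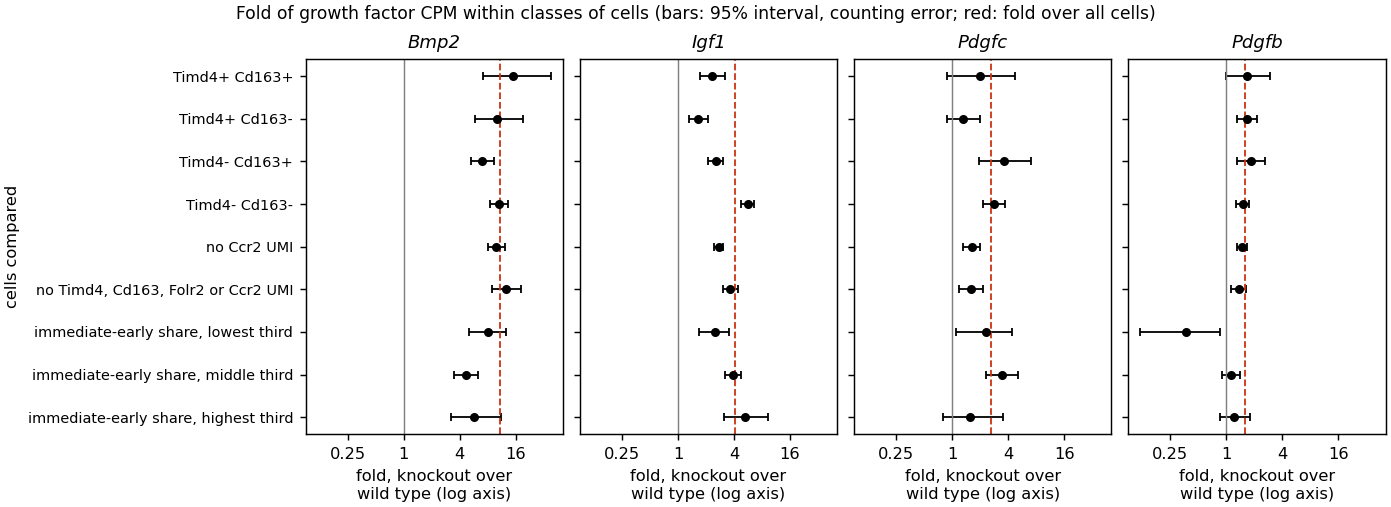
Fold of the level in knockout over wild type within classes of cells, on a log axis with counting intervals, for Bmp2, Igf1, Pdgfc and Pdgfb, with the fold over all cells as a dashed red line and no difference as a grey line. The plotted classes lie to the right of 1 for Bmp2 (7.01 to 15.1, and 4.65 to 8.16 in the immediate-early bands), whereas Pdgfb stays near 1 in the middle and highest bands.

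Fibroblasts and endothelial cells are known to make several of these factors, and their markers were higher in the knockout. Cells with 2 or more UMIs of those 10 markers were 9.38% of wild-type and 11.3% of knockout cells, and they held 15.3% of wild-type and 4.17% of knockout Bmp2 UMIs. Most of the endothelial marker level was Pecam1, so these cells need not all be fibroblasts or endothelial cells. Without them the log2 ratio was 3.53 for Bmp2, 2.05 for Igf1, 1.34 for Pdgfc, 0.65 for Pdgfb, 1.12 for Hbegf, 0.91 for Vegfa, 0.16 for Vegfb and 2.0 for Areg. The largest decrease was thus that of Hbegf, from 1.25. When only cells with at least 5 of the 8 macrophage markers were used, the values were 3.34 for Bmp2, 1.98 for Igf1, 1.18 for Pdgfc, 0.85 for Hbegf and 0.37 for Areg. Both settings were chosen after seeing the data. Among Bmp2-positive cells 94.2% in wild type and 71.5% in the knockout had at least 5 macrophage markers, against 90.2% and 62.7% of all cells.

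The genes whose counts per cell moved most like each member were sought among 5373 genes found in at least 5% of cells, as the smaller of the correlations within the wild-type (3016 cells) and knockout (2612 cells) libraries. In sparse counts such values are small. The 5 highest for Bmp2 were Cd163 (0.16), Fcrls (0.15), Dab2 (0.15), Pf4 (0.14) and Ccl12 (0.14). For Igf1 they were Pf4 (0.23), Cd163 (0.23), Timp2 (0.20), Gas6 (0.20) and Mrc1 (0.20). Cd163 and Pf4 stood in both lists. Pdgfb had only Irf2bp2 at 0.1 or above (0.11), and the other 5 members had none.

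Other growth factors were read from a list of 42 genes, of which 41 were in the files and 9 reached a mean of 10 CPM. Of these 9, 6 were 2-fold or more higher in the knockout and 0 lower, against 9.04% and 3.12% of all genes with that mean. Their median log2 ratio was 1.42 against 0.18 over all genes. A gene could reach that mean through the knockout alone, as Gdf15 did, so the counts in this and the following lists are descriptions. Gdf15, a stress-induced member of the TGF-beta superfamily, stood at 4.79 CPM in wild type and 20.8 CPM in the knockout (log2 ratio 1.91), and Pgf, placental growth factor, at 40.0 and 137 CPM (1.75). Osm, an IL-6 family cytokine, stood at 18.0 and 60.6 CPM (1.70), and Gas6, a ligand of TAM receptors on phagocytes, at 74.2 and 237 CPM (1.67). Hgf (1.42) and Wnt4 (1.18) completed the 6. Without cells with a Ccr2 or Plac8 UMI Pgf was at 1.06 and Wnt4 at 0.43, which left 5 of 9 past 2-fold, and in cells with 2000 to 4000 UMIs 4 of 9 were past it. Tgfb1 was nearly level at 301 and 316 CPM (0.07) and turned below 0 with median-of-ratios factors.

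Receptors for the 8 factors were mostly low: 4 of 17 reached the minimum. Igf1r was at 14.7 and 41.2 CPM (log2 ratio 1.42) and Nrp2, a VEGF co-receptor, at 14.6 and 30.7 CPM (1.02). That made 2 of 4 past 2-fold, against 9.04% of all genes higher and 3.12% lower. Nrp1 (0.82) and the BMP type II receptor gene Bmpr2 (0.72) were under it. Nrp2 was at 0.90 without the cells carrying fibroblast or endothelial markers and at 0.94 without cells with a Ccr2 or Plac8 UMI, which in each case left 1 of 4 past 2-fold, and 0 of 4 were past it in cells with 2000 to 4000 UMIs. Wild-type cells held 7 UMIs of Egfr, 8 of Pdgfra and 11 of Pdgfrb, and knockout cells 4, 15 and 26.

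Of 26 genes that shed, activate or bind the factors, 14 reached the minimum. Past 2-fold, 5 were higher and 0 lower (median 0.65), against 9.04% and 3.12% of all genes. Adam17, the protease that releases Hbegf and Areg, stood at 65.0 and 104 CPM (0.66). Plau, the urokinase plasminogen activator, stood at 12.4 and 66.8 CPM (2.34), and Thbs1, thrombospondin 1, at 117 and 401 CPM (1.77). The IGF-binding proteins Igfbp7 (3.78) and Igfbp3 (3.68) and Sparc (2.71) had the highest ratios, and these moved with the stromal markers: without cells that carry 2 or more fibroblast or endothelial UMIs they were 2.50, 2.20 and 1.65, whereas Plau was 2.41. Among 11 genes of BMP response, 6 reached the minimum and 1 was past 2-fold, namely Id2 at 41.2 and 115 CPM (1.46), or 2 without cells with a Ccr2 or Plac8 UMI and in cells with 2000 to 4000 UMIs. Id3, a direct BMP target, stood at 13.1 and 26.8 CPM (0.98) but at a log2 ratio of -0.16 without the cells carrying stromal markers. Of 16 hypoxia genes, 11 reached the minimum and 0 were past 2-fold in either direction (median 0.35). Of these 11, 8 were higher and 3 lower in the knockout. Their log2 ratios ran from -0.67 for Ldha (244 and 152 CPM) to 0.79. Vegfa is a known hypoxia target.

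Of 9 resident macrophage genes, 8 reached the minimum and 6 were past 2-fold higher, including Timd4 (2.21) and Cd163 (2.06), against 9.04% of all genes. That count was 3 without cells with a Ccr2 or Plac8 UMI, where the median was 0.80 and Cbr2 lay below 0, and 4 with median-of-ratios factors or in cells with 2000 to 4000 UMIs. Of 20 immediate-early genes, 19 reached the minimum and 18 were past 2-fold higher, against 9.04% of all genes. Egr1 was at 215 and 1772 CPM (3.03). Of 10 heat shock genes, 3 were past 2-fold lower, against 3.12% of all genes, with Hspa1a at 643 and 197 CPM (-1.70). With median-of-ratios factors 8 were past 2-fold lower, with those over genes of at least 10 CPM 7, and in cells with 2000 to 4000 UMIs 5. The part of these differences in the levels of the growth factors was not tested beyond the bands and classes above.

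Promoter sequence was searched for 4 known motifs, and a part of the factors that bind them in these levels was not tested. RefSeq (GRCm38.p6) gave start sites for 5 of the 8 members: Pdgfc, Areg, Igf1, Vegfa and Vegfb. The 250 bases before each start were searched on both strands for TGANTCA (AP-1), TGACGTCA (CRE), ACGTG (HRE) and GCGGGGGCG (EGR). Among 32851 windows of the same length these motifs were found in 6.75%, 1.55%, 16.6% and 2.57%. The stretches shown are those of Pdgfc, which was higher in the knockout, of Areg, which has the CRE match but whose level rests on 9 knockout cells, and of Vegfb, which was nearly level. The Igf1 window overlaps an exon of the gene and is not printed. Each is given 5′ to 3′ on the strand of the gene, with a motif match in capitals.
Pdgfc, chr3:81036166-81036415, plus strand: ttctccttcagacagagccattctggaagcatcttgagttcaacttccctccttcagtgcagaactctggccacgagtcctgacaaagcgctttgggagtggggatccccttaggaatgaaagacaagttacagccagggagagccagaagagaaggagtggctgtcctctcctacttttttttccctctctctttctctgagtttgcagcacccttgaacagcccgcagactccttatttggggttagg
Areg, chr5:91139349-91139598, plus strand: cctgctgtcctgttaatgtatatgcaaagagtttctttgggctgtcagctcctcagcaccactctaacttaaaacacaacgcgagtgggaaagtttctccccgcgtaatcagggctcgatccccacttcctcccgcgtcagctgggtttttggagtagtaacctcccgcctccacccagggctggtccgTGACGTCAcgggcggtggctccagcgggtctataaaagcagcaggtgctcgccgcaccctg
Vegfb, chr19:6987652-6987901, minus strand: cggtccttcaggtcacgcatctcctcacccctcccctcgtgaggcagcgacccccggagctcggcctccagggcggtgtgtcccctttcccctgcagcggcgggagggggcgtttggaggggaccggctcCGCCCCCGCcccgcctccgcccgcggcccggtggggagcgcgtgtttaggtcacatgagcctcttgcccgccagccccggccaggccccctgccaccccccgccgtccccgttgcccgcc
In Areg the CRE letters lie 61 to 54 bases before the start, and in Vegfb the EGR letters lie 120 to 112 bases before it. The Igf1 window held TGAATCA, an AP-1 match, 37 to 31 bases before its start. Of the 2 Vegfa starts, the window of one held none of the motifs and that of the other held CACGT, an HRE match, 211 to 207 bases before it. The Pdgfc window held none of the 4. A match describes the letters and says nothing of binding.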

How the data were processed

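The deposited files hold, per library, a matrix with raw UMI counts of the genes in its cells, deposited without normalisation. Counts came from Cell Ranger 3.0.1 and the build was mm10, per the submitters' processing notes. How cells were called, and whether the lanes were evened out in depth, is not given in the sources used here. Wild-type lanes were told apart by barcode suffix, per the labels.

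Kept cells had 200 or more genes and no more than 10% mitochondrial UMIs (Python 3.11.15, scipy 1.17.1). UMIs were summed per library, scaled to CPM, and log2 ratios took a pseudocount of 1 CPM. Levels carry exact Poisson intervals, folds and shares exact binomial (Clopper-Pearson) intervals at the 95% level. A level or share of 0 was bounded by 3 counts. Shares were taken after random thinning to 1000 UMIs per cell. A gene was counted as past the fold at 2-fold with a mean of at least 10 CPM. No test between genotypes was made, since each genotype had 1 library. Coordinates are from GENCODE M21 (GRCm38), in which 98.7% of gene identifiers were found, and promoters from RefSeq. Doublets were not removed in the reported values, and removing the highest Scrublet scores (scanpy 1.11.5) was an alternative. The fold and thinning steps were tested on simulated data.

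From each gene list the genes past the minimum with the largest ratios of 1 direction against both lanes are named, up to 4 per list, and up to 5 genes most like each member with a correlation of at least 0.1. Other list genes named (Hgf, Wnt4, Tgfb1, Adam17, Thbs1, Egfr, Pdgfra and Pdgfrb) were chosen after their values were seen. The members and lists were chosen with earlier results of these data known.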

Additional observations from a re-analysis of the deposited data

Results flagged for a closer look

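Igf1 was higher in wild-type cells with Timd4 and nearly level by Timd4 in the knockout. Its level in cells with a Timd4 UMI was 2.40-fold that in cells without one in wild type (2.02 to 2.83), and 0.919-fold in the knockout (0.802 to 1.05). The wild-type lanes gave 2.17-fold and 3.01-fold. Shares after thinning were 8.74% of wild-type cells with Timd4 (4.07% to 15.9%) against 3.91% without (3.24% to 4.68%), and 11.5% (8.47% to 15.2%) against 12.6% (11.2% to 14.1%) in the knockout, with overlapping intervals in each. By lane the wild-type shares were nearly level in lane 1, at 3 of 74 cells with Timd4 and 75 of 2035 without, and apart in lane 2, at 6 of 29 and 39 of 877. The difference between the libraries was not tested, since each genotype had 1 library.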

How the results depend on the processing

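Across 16 alternative settings per member the log2 ratios of Bmp2, Igf1, Vegfa, Hbegf, Pdgfb and Pdgfc stayed above 0, and that of Vegfb ranged from -0.17 to 0.47. Leaving out cells with a Ccr2 or Plac8 UMI gave 3.00 for Bmp2, 1.29 for Igf1, 0.64 for Pdgfc and -0.03 for Vegfb. Most cells so removed were wild-type. Median-of-ratios factors gave 3.01 for Bmp2, 1.70 for Igf1, 0.36 for Pdgfb, 0.996 for Pdgfc and -0.17 for Vegfb, and moved the median of all genes by -0.30. Computed over genes with a mean of at least 10 CPM, a version chosen after seeing the data, they gave 1.82 for Igf1, 0.47 for Pdgfb and -0.06 for Vegfb, with 48.3% of genes past the fold higher. Restricting to cells with 2000 to 4000 UMIs gave 1.17 for Igf1 and 0.23 for Pdgfb, and the mean of each cell's own CPM gave 1.85 for Igf1. A pseudocount of 10 CPM, which by construction shrinks low levels, gave 2.55 for Bmp2, 1.76 for Igf1, 0.85 for Pdgfc and 0.62 for Hbegf. Wild-type lane 2 alone gave 3.76 for Bmp2. Areg was 0.37 in cells with at least 5 macrophage markers and 0.00 without its 10 top cells, since 9 knockout cells held all its UMIs. With no minimum level 5 members were past 2-fold higher instead of 3. Removing 55 knockout and 43 wild-type cells with the highest Scrublet scores changed no member by more than its counting error. Causes not named were not tested. Depth limits Vegfa, Hbegf and Areg, each under 100 UMIs per library. No paired analysis was possible because each genotype had 1 library and the labels carry no replicate numbers.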
